A study of Bos taurus with 24 samples.

Results

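The BCL2 family and the initiator caspase CASP9 were followed in 24 single early blastocysts of Holstein cattle (Bos taurus), each sequenced on its own. The genes were chosen by name: BAX, BAK1, BCL2L1, BCL2, MCL1, BID, BCL2L11, PMAIP1 and CASP9. Of these 9 genes, 7 had a row among the 24621 genes of the count table, and BID and PMAIP1 had none under their symbols and were not analysed here. A row named BID1 could not be matched to BID and was not used. Of the 7, BAX, BAK1, BCL2L1, MCL1 and CASP9 had at least 15 counts in every embryo of at least 1 condition, whereas BCL2L11 and BCL2 did not.

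The blastocysts came from 3 conditions with 8 embryos each, and all were sired by the same bull. In vivo embryos (5 male, 3 female) were flushed from 3 superovulated, inseminated cows. In vitro embryos grew from slaughterhouse oocytes in 3 independent experiments, either with fetal bovine serum in both maturation and culture (serum, 3 male and 5 female), or with epidermal growth factor in maturation and bovine serum albumin plus insulin, transferrin and selenium in culture (serum-free, 5 male and 3 female). Both in vitro groups were grown in synthetic oviduct fluid. In vivo embryos were flushed on a single day after insemination, while in vitro blastocysts were harvested on that day and the day before. Oocyte donors and, in part, the day of recovery thus differed between the in vivo and in vitro groups as well as the place of development. A serum embryo met serum in both maturation and culture, while fertilization in both in vitro groups took place in medium with albumin. These factors cannot be told apart. The labels do not tie an embryo to its donor cow, in vitro experiment or sequencing lane, and no batch could be entered in a fit.

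The BCL2 family governs the mitochondrial route to apoptosis. BAX and BAK1 are the effectors that open the outer mitochondrial membrane, while MCL1, BCL2L1 (BCL-XL) and BCL2 hold them in check by binding them and the BH3-only proteins. BH3-only proteins such as BCL2L11 (BIM), BID and PMAIP1 (NOXA) report stress to the guardians or activate the effectors directly. Once the membrane is open, cytochrome c assembles APAF1 and CASP9 into the apoptosome, which switches on the executioner caspases. Blastocysts normally lose some cells by apoptosis, mainly in the inner cell mass. Much of the control of these proteins takes place by binding, cleavage and degradation, which transcript counts do not measure.

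Total counts ranged from 3253051 to 9000447 per embryo, with a median of 4454031, and 11735 to 14732 genes had a count. One serum embryo, B2 (female), stood apart: its mean correlation with the other embryos of its condition was 0.780, against 0.863 to 0.942 for the other embryos. The markers fixed for the cell types of the blastocyst also differed between conditions. Levels are in CPM, the count of a gene relative to the TMM-scaled total of its library. The summed level of the 7 trophectoderm markers was 7610 to 14800 CPM in vivo, 294 to 5180 in serum and 4970 to 27400 in serum-free embryos, led by KRT8 and KRT18, with CDX2 and ELF5 near 1 CPM or below in all conditions. Of these markers only TFAP2C had a higher mean in serum (254.9 CPM) than in vivo (206.3 CPM). The 4 hypoblast markers summed to 342 to 601, 25.2 to 235 and 125 to 393 CPM, in the same order, with SOX17 at 0 in vivo and in serum. PDGFRA led this sum (mean 107.8 CPM in serum against 438.5 in vivo), while GATA6 was not lower (21.54 against 19.15). The 4 inner cell mass markers with a row summed to 298 to 404, 282 to 601 and 188 to 441 CPM. In serum the mean of POU5F1 was lower than in vivo (148.6 against 215.9 CPM), while those of NANOG, SOX2 and KLF4 were higher. The 8 cumulus or granulosa markers summed to 5.54 to 32.3 CPM in vivo, 6.39 to 136 in serum, with the highest value in B2, and 14.1 to 61.7 in serum-free embryos, with PTX3 at 0 in all. The 3 sperm markers summed to at most 0.241, 11.8 (in B2) and 1.15 CPM, with PRM1 and PRM2 at 0 in vivo. In these whole embryos, fewer cells of a type and less RNA per cell cannot be told apart, and the part of cell composition in the results below was not tested.

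The question put to each gene was whether its level in blastocysts made in vitro differed from that in vivo, and whether the 2 media differed. Expression is given in CPM. CPM is not corrected for transcript length, so levels are compared between embryos for one gene and not between genes. Differences were tested with edgeR's quasi-likelihood test and Benjamini-Hochberg adjustment over all genes tested, and a gene was called at an adjusted p below 0.05. Fold changes are log2 values, first condition over second, with standard errors (SE). With 8 in vivo embryos from 3 cows and 16 in vitro embryos from 3 experiments, some embryos shared a cow or an experiment. The tests treat the embryos as independent, so the p-values measure the spread between these embryos and may be too small.

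In serum embryos, 3 of the 5 tested genes were lower than in vivo (MCL1, BAK1 and BCL2L1) and none was higher. Of all 7339 genes tested, 28.3% were called (13.4% lower and 14.8% higher). None of the 3 changed by 2-fold or more, whereas 13.8% of all genes were called and changed that much. The pro-apoptotic BH3-only gene BCL2L11, too scarce for the limit of 15 counts, was higher in CPM in every serum embryo than in every in vivo embryo. Among genes with at least 1 count, 2.85% had groups that did not overlap. The BCL2L11 counts themselves did overlap (4 to 56 in serum, 0 to 5 in vivo). Only MCL1 was called in 9 of the 16 fits that left out 1 embryo (A1, A3, A6, A7, A8, B1, B2, B6 or B7). The summed trophectoderm markers, led by KRT8 and KRT18, were lower in the same serum embryos (median 1360 against 10900 CPM in vivo). The summed hypoblast markers were lower as well (101 against 492 CPM), although TFAP2C and GATA6 of these lists were not. The part of cell types in these changes was not tested. In serum-free embryos 0 of the 5 tested genes was called.

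**Figure D1:**
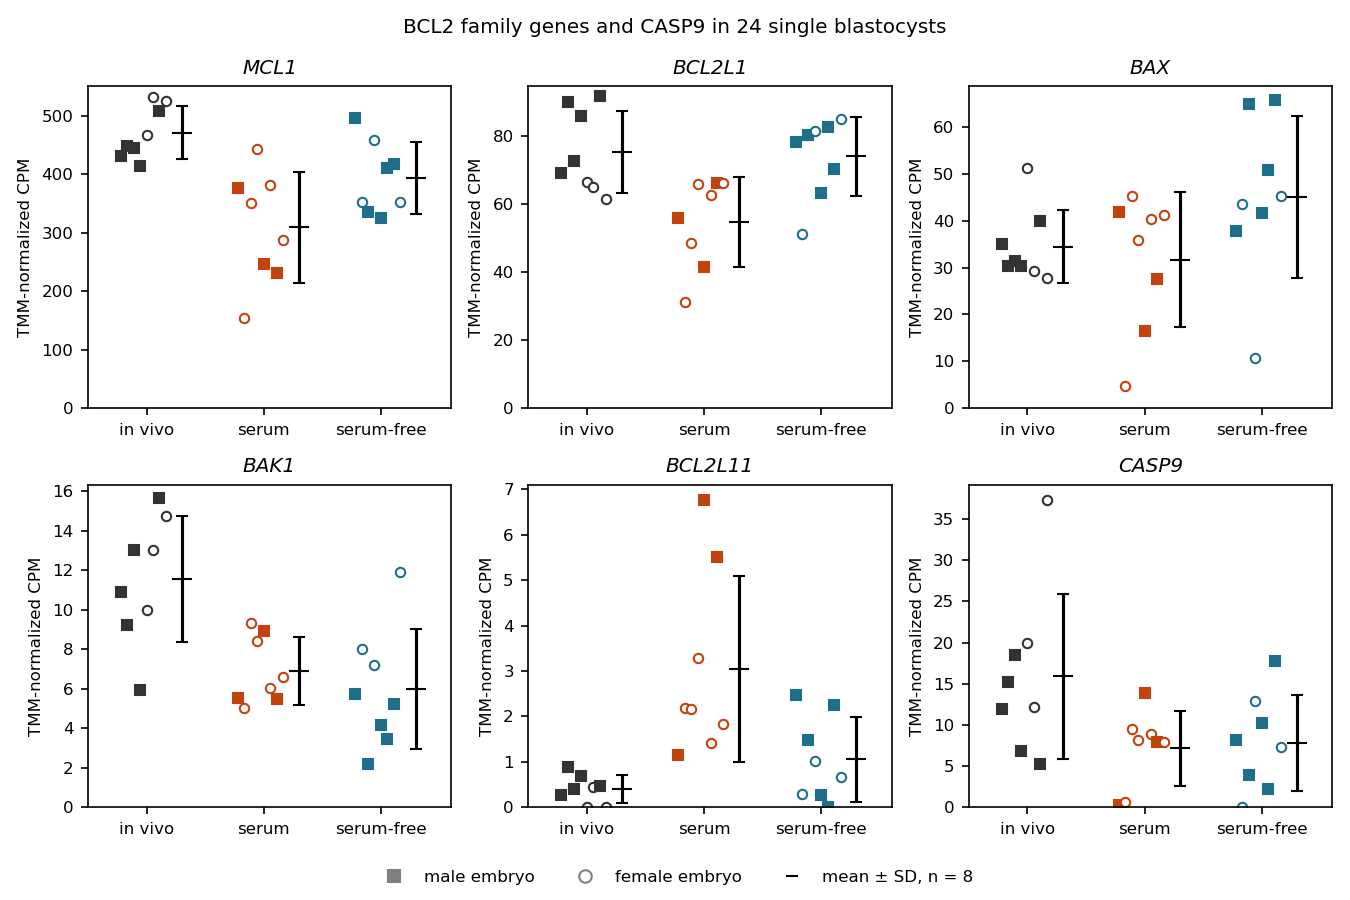
Level of 6 genes in each of the 24 blastocysts, in CPM on linear axes that start at 0. Each point is an embryo (filled squares male, open circles female) and the bar is the mean ± SD of the 8 embryos of a condition. MCL1 in 7 of 8 serum embryos lay below the lowest in vivo embryo. For BCL2L11 all 8 serum embryos lay above the highest in vivo embryo, where 2.85% of genes with at least 1 count had groups that did not overlap.

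MCL1, a short-lived guardian protein that is required for mouse blastocysts to implant, was the steadiest of the genes in vivo. Its in vivo levels ran from 414.9 CPM (lowest) through a median of 457.9 to 532.2 (highest), a coefficient of variation (CV) of 9.49%. Of the 6966 genes with at least 15 counts in every in vivo embryo, 95.9% had a larger CV, and the median gene had 24.8%. These genes were not matched for level. MCL1 had 1585 to 2530 counts per in vivo embryo, and counting error adds less to the CV of such a gene. Serum embryos ran from 154.7 through 319.3 to 443.9 CPM, and serum-free embryos from 324.6 through 382.0 to 496.0 CPM. All 8 serum embryos lay below the in vivo median and 7 of them below the in vivo minimum.

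The mean of MCL1 was 309.2 ± 95.4 CPM (SD, n = 8) in serum against 471.6 ± 44.8 (n = 8) in vivo, a log2 fold change of -0.61 (SE 0.168, adjusted p = 0.0114), or 1.53-fold lower. This call held in each of the 16 fits that left out 1 embryo (log2 fold change from -0.70 to -0.49, adjusted p from 0.00501 to 0.0332), and without B2 the change was -0.49 (adjusted p = 0.0143). In serum-free embryos MCL1 was 393.8 ± 62.2 CPM, a change of -0.24 from in vivo (SE 0.105, adjusted p = 0.186). Serum and serum-free embryos differed by -0.38 (SE 0.181, adjusted p = 0.151). The order of the means was thus in vivo, serum-free, serum, and only its ends differed beyond the spread of the embryos.

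BCL2L1, the guardian known as BCL-XL, ran from 61.5 CPM through a median of 70.8 to 91.5 in vivo. Serum embryos ran from 31.1 through 59.1 to 66.2 CPM, and serum-free embryos from 51.3 through 79.1 to 84.9 CPM. All 8 serum embryos lay below the in vivo median, 4 of them below the in vivo minimum. The means were 75.2 ± 12.0, 54.7 ± 13.2 and 73.9 ± 11.6 CPM (SD, n = 8 each).

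The change of BCL2L1 in serum was -0.46 against in vivo (SE 0.170, adjusted p = 0.0478), or 1.38-fold lower. It stood at the threshold: the call was kept in 3 of the 16 fits without 1 embryo (adjusted p from 0.0397 to 0.120), and without B2 the change was -0.36 (adjusted p = 0.0877). With sex as a covariate it was -0.42 and not called (adjusted p = 0.0832). Leaving out A1, A2, A3, A4, A6, A7, A8, B1, B3, B5, B6 or B7 also ended it. Serum-free embryos differed from in vivo by less than 0.01 in log2 fold change (SE 0.137, adjusted p = 0.993). Against serum-free embryos the change in serum was -0.47 (SE 0.182, adjusted p = 0.0825). In RefSeq, LOC107133075 overlaps BCL2L1 in a later cattle assembly (ARS-UCD2.0), and the libraries carry no strand to tell their reads apart.

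BCL2, the founding member of the family, was not detected in vivo, with 0 counts in 36419232 counts over 8 embryos. A count of 0 allows a level of up to 0.0824 CPM (3 counts, counting error only). It had 1 count in serum (embryo B1, of 40172724 counts) and 0 in serum-free embryos, which allows up to 0.0863 CPM. No difference in BCL2 was detectable at this depth.

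Of the effectors, BAK1 had the lower counts (9 to 74 per embryo). It ran from 5.97 CPM through a median of 12.0 to 15.7 in vivo, from 5.03 through 6.32 to 9.34 in serum, and from 2.22 through 5.48 to 11.9 in serum-free embryos. Every serum embryo lay below the in vivo median, although only 3 lay below its minimum. Means were 11.6 ± 3.19 CPM in vivo, 6.92 ± 1.71 in serum and 5.99 ± 3.05 in serum-free embryos (SD, n = 8 each).

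The change of BAK1 was -0.73 in serum (SE 0.261, adjusted p = 0.0414), or 1.66-fold lower than in vivo. It was called in 5 of the 16 fits without 1 embryo (adjusted p from 0.0291 to 0.0986). Without B2 it was -0.66 (adjusted p = 0.0754), and the call was also lost without A1, A3, A6, A7, A8, A9, B1, B6, B7 or B8. In serum-free embryos the change was -0.92 (SE 0.312, unadjusted p = 0.00774, adjusted p = 0.0861). The serum-free difference was larger in size than the one in serum but was not called. It was called without embryo C8, the serum-free embryo with the highest BAK1 (adjusted p = 0.0359), and with sex as a covariate (-1.01, adjusted p = 0.0388). The in vitro groups differed from each other by 0.18 (SE 0.328, adjusted p = 0.735).

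BAX, the effector that moves from the cytosol to mitochondria, was the tested gene with the least difference between serum and in vivo embryos. Its in vivo levels ran from 27.8 CPM through a median of 30.8 to 51.2. Serum embryos spread more widely, from 4.81 through 38.1 to 45.2 CPM, and serum-free embryos from 10.6 through 44.4 to 65.6 CPM. The lowest values were single embryos, B2 in serum and C3 in serum-free culture. The CV of BAX was 22.6% in vivo, 45.3% in serum (28.6% without B2) and 38.4% in serum-free embryos.

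Means of BAX were 34.4 ± 7.79, 31.7 ± 14.3 and 45.0 ± 17.3 CPM (SD, n = 8 each). The log2 fold change was -0.13 for serum over in vivo (SE 0.317, adjusted p = 0.785), and it was 0.06 without B2. For serum-free over in vivo it was 0.41 (SE 0.261, adjusted p = 0.384), and for serum over serum-free -0.54 (SE 0.374, adjusted p = 0.324). No pair of conditions differed in BAX beyond the spread of the embryos. The same assembly has TULP2 overlapping BAX, and TULP2 itself had 0 to 15 counts per embryo.

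**Figure D2:**
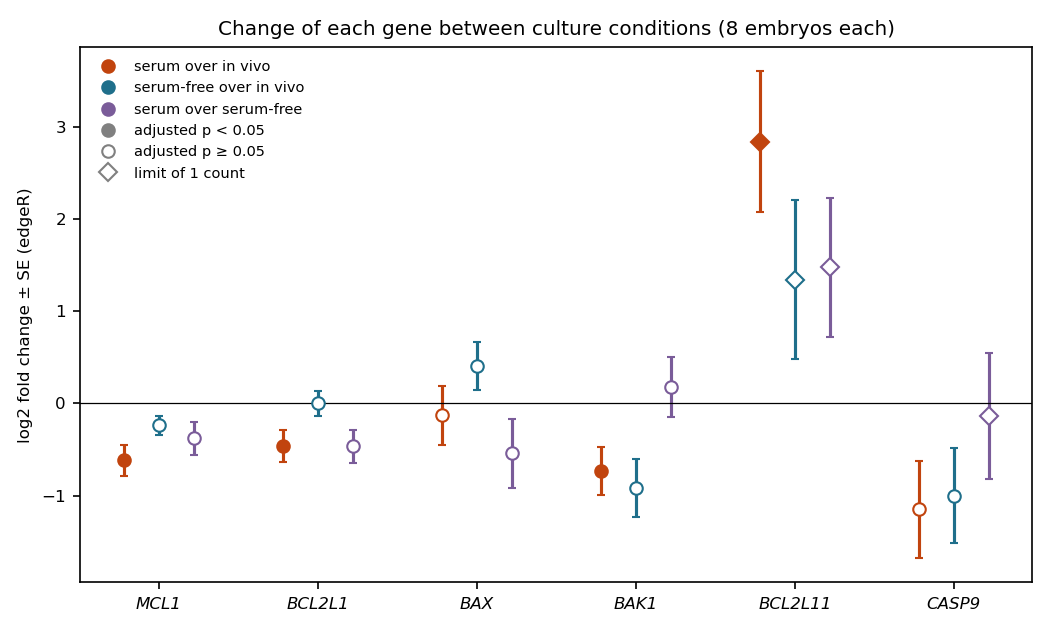
Log2 fold change ± SE of 6 genes in the 3 comparisons of 8 against 8 embryos, on a linear axis of log2 values. Filled symbols have an adjusted p below 0.05 and diamonds were tested only under the limit of 1 count; the filled symbols are MCL1 (-0.61), BCL2L1 (-0.46), BAK1 (-0.73) and BCL2L11 (2.84), all in serum over in vivo.

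BCL2L11 encodes BIM, a BH3-only protein that binds all the guardians and can activate BAX and BAK1. In vivo embryos held 0 to 5 counts of it (15 in all), serum embryos 4 to 56 (134 in all) and serum-free embryos 0 to 13 (39 in all). In CPM these were 0 (lowest), 0.426 (median) and 0.888 (highest) in vivo, 1.16, 2.18 and 6.75 in serum, and 0, 0.845 and 2.48 in serum-free embryos. In CPM the lowest serum embryo was above the highest in vivo embryo. Among the 19159 genes with at least 1 count in these 16 embryos, 2.85% had groups that did not overlap.

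Tested with a limit of 1 count in any embryo, under which 10.7% of genes were called, BCL2L11 was 7.14-fold higher in serum than in vivo (log2 fold change 2.84, SE 0.763, adjusted p = 0.0181). The means were 3.04 ± 2.04 and 0.398 ± 0.309 CPM (SD, n = 8 each). The call held in each of the 16 fits without 1 embryo (log2 fold change from 2.55 to 3.11, adjusted p from 0.0144 to 0.0377). The size of the fold rests on the few in vivo counts, since 3 counts correspond to 0.522 to 0.828 CPM in the in vivo libraries. The 2 highest serum embryos were the males B5 (56 counts, the library with the most counts of all) and B7. In serum-free embryos the change from in vivo was 1.34 (SE 0.863, adjusted p = 0.479), with a mean of 1.06 ± 0.933 CPM, and serum over serum-free was 1.48 (SE 0.756, adjusted p = 0.267). RefSeq places ACOXL across BCL2L11, and without strand their reads could be mixed where they overlap. ACOXL had 18 counts in all, 14 of them in 3 serum embryos.

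CASP9, the initiator caspase of the apoptosome, varied most among the tested genes. In vivo embryos ran from 5.30 CPM through a median of 13.7 to 37.3, serum embryos from 0.290 through 8.10 to 13.9, and serum-free embryos from 0 through 7.74 to 17.7. Single embryos had almost none of it: B1 held 1 count, B2 held 3, and the lowest serum-free embryo held 0. The CV was 63.0% in vivo, and only 1.16% of the 6966 genes compared had a larger one. The genes compared were again not matched for level.

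Mean CASP9 was 15.9 ± 10.02 CPM in vivo, 7.17 ± 4.56 in serum and 7.81 ± 5.82 in serum-free embryos (SD, n = 8 each). Against in vivo the change was -1.15 in serum (SE 0.527, unadjusted p = 0.0417, adjusted p = 0.107) and -0.999 in serum-free embryos (SE 0.517, adjusted p = 0.271), and neither was called. Without the highest in vivo embryo, A9, they were -0.85 (adjusted p = 0.243) and -0.68 (adjusted p = 0.498). Serum and serum-free embryos, testable only under the limit of 1 count, differed by -0.14 (SE 0.682, adjusted p = 0.941). The RefSeq neighbour CELA2A overlaps CASP9 and was not analysed here.

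Over the members together, serum-free embryos gave 0 of 5 calls against in vivo, where 5.82% of the 7314 genes tested were called. Serum against serum-free gave 0 of 4, where 16.3% of 7181 genes were called. At an unadjusted p below 0.05 the tests would mark BAK1 and MCL1 in serum-free over in vivo, and BCL2L1 in serum over serum-free. DESeq2 called none of the members in these 2 comparisons, and edgeR's exact test called BAK1 in serum-free over in vivo and none between the media. The comparisons with in vivo share the same 8 in vivo embryos. Their values side by side were -0.61 and -0.24 for MCL1, -0.73 and -0.92 for BAK1, -1.15 and -0.999 for CASP9, -0.46 and 0.00 for BCL2L1, and -0.13 and 0.41 for BAX.

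The balance of effector to guardian transcripts was taken within each embryo as a ratio of counts, which needs no scaling to depth. Ratios over low counts still spread more by counting error. Counts grow with transcript length, so only embryos and conditions are compared, and the ratios were described without a test. BAX over MCL1 ran from 0.0530 through a median of 0.0718 to 0.110 in vivo, from 0.0311 through 0.108 to 0.143 in serum, and from 0.0232 through 0.126 to 0.193 in serum-free embryos. Both in vitro medians were thus above the in vivo median, and both in vitro groups reached below and above the in vivo range. BAX over BCL2L1 had medians of 0.444, 0.585 and 0.638, in the same order. The other effector went the opposite way. BAK1 over BCL2L1 had medians of 0.164 in vivo, 0.114 in serum and 0.0739 in serum-free embryos, with overlapping ranges.

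B2 (0.155) and C3 (0.131) had the lowest BAX over BCL2L1, while the lowest in vivo embryo had 0.338. BAX over BAK1, the ratio of the effectors, had medians of 2.89 in vivo, 4.92 in serum and 8.30 in serum-free embryos, and its range in serum-free embryos was 1.48 to 29.1. The highest of these, in C2, rests on only 9 counts of BAK1. MCL1 over BCL2L1, the ratio of the guardians, had medians of 6.19, 6.01 and 5.40 and ranges that overlapped widely (4.84 to 8.55, 3.51 to 7.23 and 4.15 to 6.89).

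**Figure D3:**
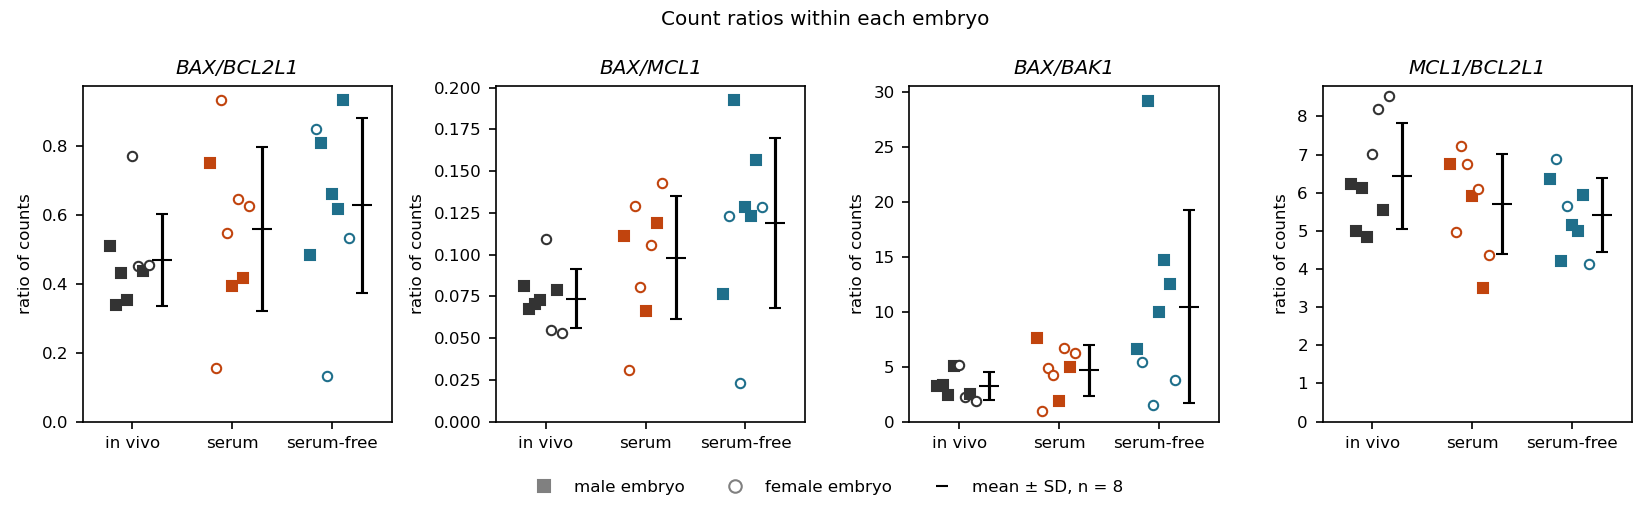
Ratio of counts of 2 genes within each embryo for 4 pairs (BAK1 over BCL2L1 is not drawn), on linear axes that start at 0. Points are embryos (filled squares male, open circles female) and bars are mean ± SD of 8 embryos; BAX over MCL1 has medians of 0.0718 in vivo, 0.108 in serum and 0.126 in serum-free embryos, with single low embryos in both in vitro groups.

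Because the conditions hold unequal numbers of males and females, the comparisons were repeated within each sex. In males (3 serum against 5 in vivo), 1 of 5 genes was called, MCL1 at -0.69 (SE 0.197, adjusted p = 0.0314; 285.0 ± 79.3 against 449.7 ± 35.5 CPM), where 19.0% of 7762 genes were called. This call was lost without A1, A2, A3, A8, B5 or B7, which left 0 genes called. Without B1 both MCL1 and BCL2L11 were called. BCL2L11 met the limit on counts there only because B1 (4 counts) was left out, through B5 (56 counts) and B7 (18 counts). In these males BCL2L11 was higher than in the in vivo males (1 to 5 counts). MCL1 and BCL2L1 were lower in all serum males than in all in vivo males, 2 of the 5 tested genes, where 26.2% of all tested genes did not overlap. BCL2L1 changed by -0.61 (SE 0.243, adjusted p = 0.0992).

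In females (5 serum against 3 in vivo), 0 of 5 genes was called, where 0.418% of 8138 genes (34) were called. That background count rests on single embryos, since it was 596 without B2 and 2 without A6, A7 or B4, while the count of members stayed at 0. DESeq2 and the exact test also called 0 members, and CASP9 alone had an unadjusted p below 0.05. MCL1 had nearly the same change as in males, -0.62 (SE 0.281, adjusted p = 0.240), with means of 323.8 ± 110 and 508.0 ± 36.0 CPM. MCL1, BAK1 and CASP9 were lower in all serum females than in all in vivo females, where 22.7% of tested genes did not overlap. BAK1 changed by -0.79 (SE 0.395, adjusted p = 0.282) and CASP9 by -1.68 (SE 0.658, adjusted p = 0.194). With 3 to 50 counts in serum females, CASP9 was tested only through the in vivo females (54 to 154 counts), where it was higher. In CPM, BCL2L11 was higher in all serum than in all in vivo embryos of each sex (1.16 to 6.75 against 0.272 to 0.888 in males, where the counts themselves, 4 to 56 and 1 to 5, overlapped, and 1.42 to 3.296 against 0 to 0.450 in females). Of the genes with at least 1 count, 14.3% in males and 12.2% in females had groups that did not overlap.

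Between serum-free and in vivo males (5 against 5), 0 of 5 genes was called, where 1.76% of 7662 genes were. BAK1 and BAX had an unadjusted p below 0.05, and both were called by DESeq2 and BAK1 by the exact test. BAK1 was lower in all 5 serum-free males than in all 5 in vivo males (4.16 ± 1.40 against 10.96 ± 3.68 CPM, log2 fold change -1.34, SE 0.385, adjusted p = 0.0905), a separation that 5.43% of tested genes showed. With 9 to 30 counts in serum-free males, BAK1 was tested only through the in vivo males (26 to 65 counts), where it was higher. BAX was 0.69 higher in log2 fold change (SE 0.223, adjusted p = 0.118), at 52.1 ± 12.8 against 33.4 ± 4.16 CPM. Between serum-free and in vivo females (3 against 3), 0 of 5 was called, where 0.304% of 8211 genes were, and DESeq2 and the exact test also called 0. MCL1 was lower in all 3 serum-free females (388.1 ± 61.5 against 508.0 ± 36.0 CPM, change -0.38, unadjusted p = 0.0471, adjusted p = 0.348), and 21.2% of tested genes had groups that did not overlap.

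Between males and females, in a fit with condition as a covariate, 0 of 5 genes was called, also with DESeq2 (2.20% of 8710 genes were called), and 0 had an unadjusted p below 0.05. BAK1 was nearest, at -0.49 for male over female (SE 0.248, unadjusted p = 0.0602, adjusted p = 0.450). Whether the effect of a medium differed between the sexes was tested as an interaction, which called 0 of 5 members and 0% of genes for either medium with edgeR. For the genes as a whole, 436 (serum) and 555 (serum-free) had an unadjusted p below 0.05, and DESeq2 called 14 and 5. The members' smallest adjusted p was 0.998 for serum and 0.854 for serum-free, and DESeq2 also called 0 of them.

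The other genes of the pathway were taken from 10 lists with 69 genes, of which 57 had a row and 30 were tested. In serum embryos 3 of the 30 were higher and 2 lower than in vivo. Among all genes 14.8% were higher and 13.4% lower. The median log2 fold change of the 30 was 0.20, against 0.01 for all genes. In serum-free embryos 1 of 30 was higher and 1 was lower, where 3.38% and 2.45% of all genes were, with a median of 0.03 against 0.00 for all genes.

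All 3 tested BH3-only genes outside the named set were called higher in serum than in vivo, where 14.8% of all genes were. The list held 7 such genes, of which 5 had a row. Of those too scarce to be tested, BMF had means of 0.404 CPM in serum and 0.926 in vivo, and HRK had 0 counts. BAD, a BH3-only protein that neutralises BCL2L1 when survival signals fail, was at 141.0 ± 49.6 against 57.8 ± 15.3 CPM (log2 fold change 1.28, SE 0.222, adjusted p = 0.000596). BNIP3 (46.1 ± 19.5 against 19.5 ± 6.64 CPM, change 1.25, adjusted p = 0.00279) and BNIP3L (355.0 ± 59.4 against 240.2 ± 37.8 CPM, change 0.56, adjusted p = 0.0057) carry a BH3-like stretch but are best known as mitochondrial receptors of mitophagy. The groups overlapped for each of the 3, and the 3 were also called without B2 and without B5.

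None of the 3 changed by a called amount in serum-free embryos, where BAD was at 73.9 ± 25.7, BNIP3 at 26.9 ± 7.39 and BNIP3L at 196.9 ± 43.0 CPM. Between the media, BAD (0.90, adjusted p = 0.0244) and BNIP3L (0.83, adjusted p = 0.00427) were higher in serum, and BNIP3 was not called.

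Of the 8 tested apoptosome and mitochondrial factors, 2 were lower in serum and none higher, where 13.4% of all genes were lower and 14.8% higher. VDAC2, the outer membrane channel that keeps BAK1 and BAX at mitochondria, was at 628.4 ± 132 CPM in serum (321.4 to 721.7) against 1174 ± 151 in vivo (879.2 to 1371). The groups did not overlap, which held for 7.00% of tested genes, and the change was -0.90 (SE 0.144, adjusted p = 0.000326). Its relative VDAC1 had a change of -0.95 that was not called (118.2 ± 87.2 against 224.2 ± 42.3 CPM, adjusted p = 0.0749). The other called gene, AIFM2, is best known as a suppressor of ferroptosis (5.55 ± 4.83 against 19.8 ± 7.68 CPM, change -1.85, adjusted p = 0.0158). Its lowest serum embryo had 0 CPM, so AIFM2 met the limit of 15 counts only through the in vivo embryos, where it was higher. APAF1, the partner of CASP9, was at 16.1 ± 9.49 against 11.7 ± 7.86 CPM (adjusted p = 0.455), and DIABLO, which relieves the inhibition of caspases, at 86.6 ± 30.7 against 71.2 ± 16.2 CPM (adjusted p = 0.342).

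MDM2, a ubiquitin ligase, was 1 of the 2 tested genes among the transcription factors of BCL2 family genes and their regulators. It was higher in serum-free embryos than in vivo (94.8 ± 43.2 against 47.5 ± 15.8 CPM, change 1.02, SE 0.273, adjusted p = 0.0312). In serum it was at 80.9 ± 45.1 CPM (change 0.77, adjusted p = 0.0632), and there it was called without B2.

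Of the other caspases 2 were tested. CASP6 and CASP2 were called in neither medium. PARP1, a DNA repair enzyme that executioner caspases cleave, was lower in serum-free embryos (707.0 ± 238 against 1154 ± 157 CPM, change -0.68, adjusted p = 0.0228), and in serum it had a change of -0.44 (adjusted p = 0.101).

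None of the 4 tested inhibitors of apoptosis, 2 death receptor genes or 3 regulators of MCL1 stability was called in either medium against in vivo. BIRC5 (survivin), the inhibitor that also serves the mitotic spindle, was at 314.4 ± 65.5 in serum and 254.7 ± 37.2 CPM in vivo (adjusted p = 0.103). HUWE1, the ubiquitin ligase that marks the MCL1 protein for degradation, was at 227.2 ± 114 in serum and 145.5 ± 36.8 CPM in vivo (change 0.68, adjusted p = 0.0665), and it was called without B5.

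Serum against serum-free embryos called 4 of 29 listed genes, 2 higher (BAD and BNIP3L) and 2 lower, where 8.29% of all genes were higher and 8.02% lower. The lower ones were AIFM2 (-2.52, adjusted p = 0.0136) and VDAC2 (-0.58, adjusted p = 0.0333). AIFM2 had 0 CPM in its lowest serum embryo and met the limit of 15 counts only through the serum-free embryos, where it was higher. Without embryo B5, 3 were called (BAD, BNIP3L and AIFM2), and without B2, 5, with TNFRSF21 as a further lower gene. VDAC2 thus stood highest in vivo, then in serum-free (919.6 ± 252 CPM) and then in serum embryos, and its difference between in vivo and serum-free embryos was not called (-0.33, adjusted p = 0.160).

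**Figure D4:**
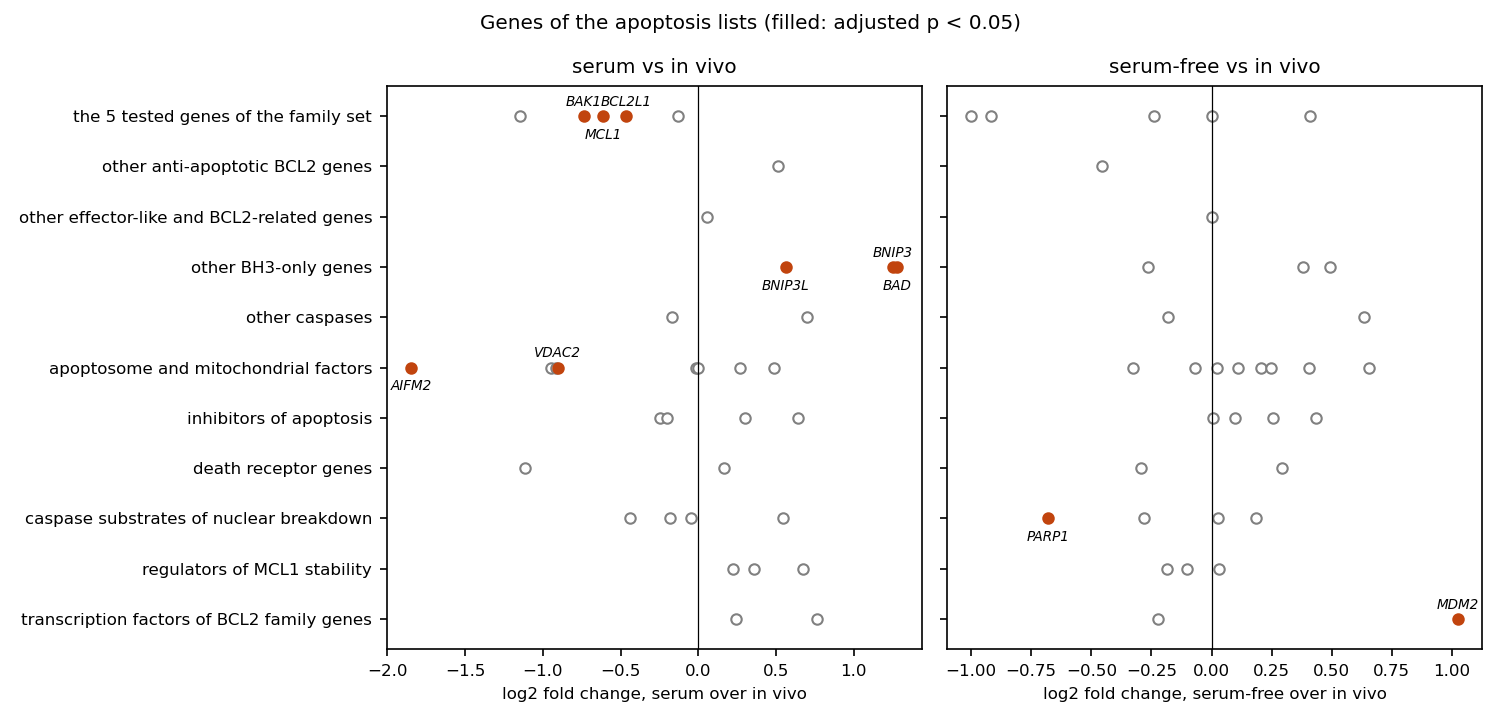
Log2 fold change of the tested genes of the named set and of the 10 lists, for serum over in vivo (left) and serum-free over in vivo (right), on linear axes of log2 values. Each point is a gene, and filled points with a name have an adjusted p below 0.05. The 3 tested BH3-only genes outside the named set are all called and higher in serum, and VDAC2 and AIFM2 are called and lower. Of all genes tested in serum over in vivo, 14.8% were called higher and 13.4% lower.

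The genes whose levels followed each member most closely over the 24 embryos were ranked by Pearson's r of log2(CPM + 1) among 7556 genes, as a description; the points share libraries, depth and condition. MCL1 was closest to EVL (r = 0.932, and 0.875 after the condition means were removed) and DEGS2 (0.913 and 0.848). BCL2L1 was closest to PDLIM1 (0.863 and 0.803) and BAX to MYO1C (0.853 and 0.862). For BAX the likeness rests in part on B2, since r was 0.696 without it. CASP9 was closest to SCAPER (0.808) and BCL2L11 to RHBDD2 (0.827, and 0.713 within conditions).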

How the data were processed

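RNA of 24 single blastocysts was amplified with an ultra-low-input kit that keeps no strand. The authors mapped the reads to the UMD3.1 cattle genome with CLC Genomics Workbench and deposited raw counts of uniquely mapped exon fragments per gene, with no normalization. The counts were tested as deposited with edgeR 4.0.16 (R 4.3.3): TMM scaling, quasi-likelihood test, and genes with at least 15 counts in every embryo of at least 1 group. BCL2L11 (and CASP9 between media) was tested with a limit of 1 count instead. SE is the absolute log2 fold change over the square root of F. CPM for display used TMM factors over all 24 embryos.

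Alternatives were the exact test, DESeq2 1.42.0, its size factors, other limits on counts, sex as a covariate, a fit over all embryos, and each embryo left out. The members were given by name, the likeness rule named the 2 closest genes of each (1 is shown for most), and every tested gene of the lists was open to naming, called genes first. The members and lists were chosen with earlier results of these data known. Some listed genes and 1 of the closest genes are not reported here and were left out of the list counts. No 2 embryos agreed within sampling noise (lowest chi-square per degree of freedom 17.8). The script for the tests was tested on simulated data.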

Additional observations from a re-analysis of the deposited data

Results flagged for a closer look

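In 21 groups of 8 embryos (6 members and the library totals, in 3 conditions each), the highest or lowest embryo was compared with the rest by Dixon's ratio, and chance alone is expected to mark about 1.05 of them. Embryo A9 stood far above the other in vivo embryos in CASP9, at 37.3 CPM (154 counts, ratio 0.540). Embryo B5 had 9000447 counts, far above the other serum embryos (ratio 0.641).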

How the results depend on the processing

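The lower MCL1 and the higher BCL2L11 in serum against in vivo kept their direction and call in all alternatives run (MCL1 in 7 of 7, BCL2L11 in 5 of 5), whereas BAK1 was called in 5 of 7 and BCL2L1 in 4 of 7. The number of members called in serum was 1 to 3 when 1 embryo was left out. In serum-free against in vivo the number was 1 (BAK1) with the exact test and with sex as a covariate, and 0 to 1 when 1 embryo was left out. Between the media it was 1 (BCL2L1) in a fit over all 24 embryos. In serum males it was 0 under the limit of 1 count and 0 to 2 when 1 embryo was left out. The 2 include BCL2L11, which met the main limit on counts in these males only without B1. In serum-free males the number was 1 (BAK1) with the exact test and 2 (BAK1 and BAX) with DESeq2. Changes near 0 turned sign when 1 embryo was left out: BAX in serum against in vivo ran from -0.2408 to 0.06442, BCL2L1 in serum-free against in vivo from -0.02005 to 0.05899 (and -0.02063 under the limit of 1 count), and CASP9 between media from -0.34 to 0.15.

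Counts over all genes moved more. Against 426 genes in serum-free over in vivo, the fit over all embryos called 112 (30.4% of them lower, against 42.0%), the limit of 1 count 260 and DESeq2 666. Between media 1171 became 1793 and 772 under the first 2 of these. In serum females 34 genes became 491 (exact test) and 716 (DESeq2), in serum-free males 135 became 343 and 463, in serum-free females 25 became 225 and 228 (296 under the limit of 1 count), and between the sexes 192 became 311 (DESeq2). The limit of 1 count gave 59 genes in serum females and moved the median log2 fold change of all genes to -0.284 in serum males and -0.249 in the interaction of sex and serum. For these the cause was not tested. Leaving out 1 embryo gave 2 genes (without A6, A7 or B4) to 596 (without B2) in serum females, 797 (without B7) to 2366 (without B1) in serum males, 10 (without A4) to 231 (without C7) in serum-free males, 1 (without A6, A7 or A9) to 18 (without C3) in serum-free females, 690 (without C7) to 1342 between media, 275 (without A7) to 468 in serum-free over in vivo, and 0 to 3 (without B1) in the interaction of sex and serum. For the pathway lists, leaving out B2 or B5 was chosen after seeing the data. No paired analysis was possible because the replicate labels differ between conditions. Depth limits BCL2L11, with 0 to 5 counts per in vivo embryo.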
